A study of Mus musculus with 4 samples.

Results

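The mitochondrially encoded transcripts are the RNAs made inside mitochondria from the organelle's own circular chromosome. They were taken as the rows of the deposited gene table whose symbol starts with mt- and whose chromosome is MT. This gave 34 genes among the 26144 genes with at least 1 count: 13 protein genes, 2 ribosomal RNA (rRNA) genes and 19 transfer RNA (tRNA) genes. GENCODE M21, an annotation of the mouse genome build GRCm38, lists 37 genes on this chromosome. The other 3, mt-Tf, mt-Ts1 and mt-Td, all tRNA genes, were not analysed here.

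The samples were intestinal organoids, epithelial cultures grown from the gut lining, from 8 to 12 week old C57BL/6 mice, wild type in genotype. All were irradiated with 8 Gy and their RNA was collected 36 h later. The organoids had been given either SGC-CBP30, a small molecule that binds the bromodomains of the related acetyltransferases CBP and p300, or vehicle, with 2 libraries in each group and no unirradiated group analysed here. The treatment label of SGC-CBP30 replicate 2 reads SGC-CBP31, and this library was grouped by its title. The labels do not state whether replicates came from separate cultures or animals, so p-values measure only the spread between these libraries, which may be technical. Libraries were prepared with a NEBNext kit, and whether poly(A) RNA was selected is not stated.

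The mitochondrial chromosome encodes core subunits of the respiratory chain complexes I, III and IV and of the ATP synthase, complex V, together with the rRNAs and tRNAs that translate them. Both strands are transcribed into long precursors, and tRNAs lying between the other genes mark where these are cut apart, so mature RNA levels depend on transcription, cutting, polyadenylation and decay. In the intestine, enterocytes and crypt base stem cells are known for their use of oxidative phosphorylation. All proteins needed to copy, transcribe and process this chromosome are imported from genes in the nucleus. In bulk RNA, fewer cells of a type, fewer mitochondria and less RNA per cell cannot be told apart.

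Mitochondrial transcripts took a smaller share of the RNA in organoids given SGC-CBP30. They held 5.25% and 5.99% of all counts in the 2 SGC-CBP30 libraries, against 6.55% and 6.73% in the 2 vehicle libraries. Both SGC-CBP30 libraries lay below both vehicle libraries, and SGC-CBP30 replicate 1 was the lower of its pair. The means were 5.62 ± 0.528% for SGC-CBP30 and 6.64 ± 0.127% for vehicle (SD, n = 2 each), a difference of -1.02 percentage points. Without SGC-CBP30 replicate 1 the difference was -0.645 points. No p is given for this sum: an exact permutation test of 2 libraries against 2 cannot go below 0.333.

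**Figure D1:**
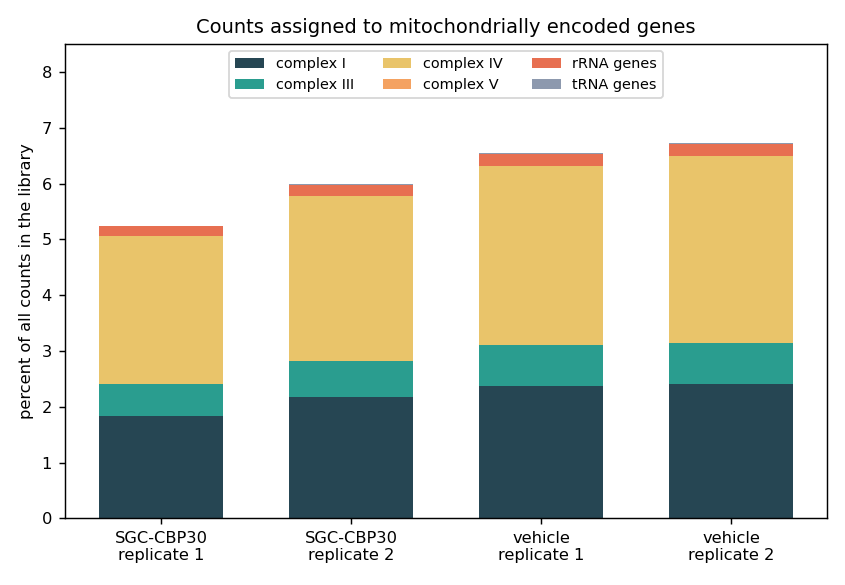
Percent of all counts in each library that was assigned to mitochondrially encoded genes (vertical axis), stacked by respiratory complex and RNA class, for the 2 SGC-CBP30 and the 2 vehicle libraries. The SGC-CBP30 bars end at 5.25% and 5.99% and the vehicle bars at 6.55% and 6.73%; complex V and the tRNA genes are too small a share to be seen.

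The make-up of the mitochondrial counts was nearly the same in both groups. As it is not stated whether poly(A) RNA was selected, these shares may not be those of RNA in the cells. Protein genes made up 96.4 ± 0.0443% of mitochondrial counts in SGC-CBP30 libraries and 96.5 ± 0.0797% in vehicle libraries (SD, n = 2 each). The rRNA genes made up 3.32 ± 0.0428% and the tRNA genes 0.283 ± 0.00149% in SGC-CBP30 libraries, against 3.23 ± 0.0576% and 0.275 ± 0.0221% in vehicle libraries. A single gene, mt-Co1, held about as many counts as all the others together, with 50.3% and 49.2% of mitochondrial counts in SGC-CBP30 libraries and 48.8% and 49.6% in vehicle libraries. The 8 genes on the minus strand held 2.54% and 2.58% in SGC-CBP30 libraries and 2.44% and 2.38% in vehicle libraries. Their part was slightly larger, without overlap, in the treated organoids. Most of it was mt-Nd6, with 2.31% and 2.36% in SGC-CBP30 libraries and 2.21% and 2.17% in vehicle libraries. Whether the counting used strand is not given in the sources used here.

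Of the 34 genes, 28 passed the filter on low counts: 12 protein genes, both rRNA genes and 14 tRNA genes. A gene was called when its adjusted p in edgeR's quasi-likelihood test over the whole table was under 0.05. By this rule 15 of the 28 were called, all of them lower in SGC-CBP30 organoids. Over the whole table, 16.3% of the 14684 genes tested were called lower and 13.6% higher, 30% in all. The 15 called genes were 10 of 12 protein genes, 2 of 2 rRNA genes and 3 of 14 tRNA genes. In 18 of the 28 both SGC-CBP30 libraries lay below both vehicle libraries and in 0 did both lie above, against 31% below and 32.1% above over all genes tested. The median log2 fold change, SGC-CBP30 over vehicle, was -0.31 for the protein genes, -0.24 for the rRNA genes and -0.24 for the tRNA genes, beside 0.0096 over all genes tested. An unadjusted p under 0.05 was reached by 15 of the 28, against 39.1% of all genes tested. The calls of mt-Co2, mt-Nd5, mt-Nd6, mt-Rnr1, mt-Tp and mt-Ts2 were lost under at least 1 other setting that kept all 4 libraries. The other 9 genes were called under every such setting. Settings with a library left out keep 1 library in a group, so the spread comes from the other group alone.

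**Figure D2:**
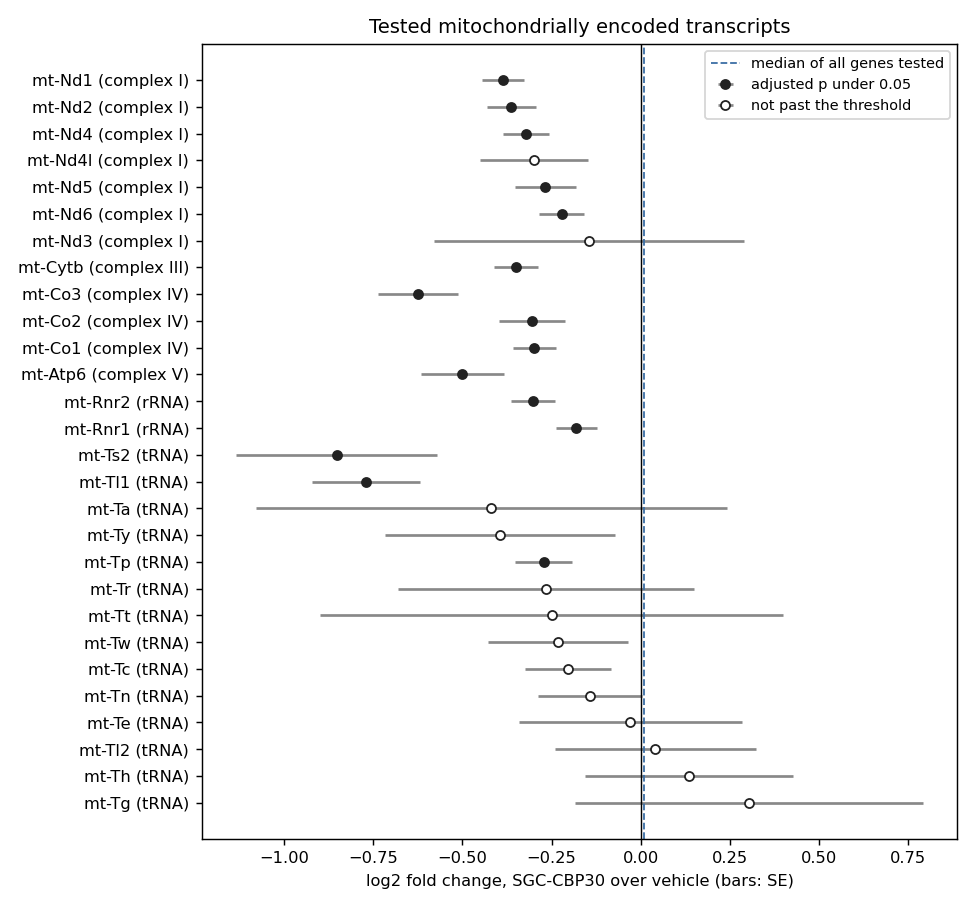
Log2 ratio of SGC-CBP30 to vehicle (horizontal axis) with its SE for the 28 tested mitochondrially encoded genes, grouped by complex and RNA class; filled points passed the adjusted p threshold of 0.05. All 15 filled points lie left of 0, and the wide bars belong to genes with few counts and to mt-Nd3.

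Complex I, the NADH dehydrogenase that passes electrons into the respiratory chain, takes 7 of its subunits from mitochondrial genes, and 5 of these fell. The most abundant, mt-Nd1, whose product sits where the membrane arm meets the peripheral arm, had 5982 and 6579 CPM (counts scaled to library size with TMM factors) in SGC-CBP30 libraries, against 8124 and 8289 CPM in vehicle libraries. The groups did not overlap, and the log2 fold change was -0.39 ± 0.06 (SE; edgeR adjusted p = 1.54e-05). For mt-Nd2, a proton-pumping subunit of the membrane arm, SGC-CBP30 libraries had 2965 and 3573 CPM and vehicle libraries 4166 and 4243 CPM (log2 fold change -0.36 ± 0.07, adjusted p = 3.54e-04). A related pumping subunit, mt-Nd4, had 2789 and 3278 CPM in SGC-CBP30 libraries and 3778 and 3811 CPM in vehicle libraries (-0.32 ± 0.06, adjusted p = 4.09e-04). In both genes SGC-CBP30 replicate 1 was the lowest library. Without it, the log2 fold changes were -0.24 for mt-Nd2 and -0.21 for mt-Nd4.

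The third pumping subunit, mt-Nd5, had 5033 and 6311 CPM in SGC-CBP30 libraries and 6733 and 6921 CPM in vehicle libraries. The groups did not overlap, but the SGC-CBP30 libraries stood far apart, and the log2 fold change of -0.27 ± 0.09 (adjusted p = 0.0348) was -0.12 without replicate 1 and -0.44 without replicate 2. It was no longer called by DESeq2 (adjusted p = 0.263). The membrane subunit mt-Nd6 is the only protein gene encoded on the minus strand. It had 1188 and 1374 CPM in SGC-CBP30 libraries, against 1483 and 1504 CPM in vehicle libraries, with no overlap (-0.22 ± 0.06, adjusted p = 0.00902). Without SGC-CBP30 replicate 1 its log2 fold change was -0.12. The ends of mt-Nd5 and mt-Nd6 overlap by 14 bases on opposite strands, and counts there cannot be told apart unless the counting used strand, which is not given in the sources used here.

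The remaining complex I genes, mt-Nd4l and mt-Nd3, encode small membrane subunits and were not called. Transcript mt-Nd4l had 11.6 and 13.2 CPM in SGC-CBP30 libraries and 13.4 and 17.2 CPM in vehicle libraries (-0.30 ± 0.15, adjusted p = 0.146). Its log2 fold change was -0.47 (adjusted p = 0.0473) without vehicle replicate 1 and -0.11 (adjusted p = 0.777) without vehicle replicate 2. Transcript mt-Nd3 had 29.6 and 28.6 CPM in SGC-CBP30 libraries and 42.3 and 21.7 CPM in vehicle libraries (-0.15 ± 0.44, adjusted p = 0.864). The SGC-CBP30 values of mt-Nd3 were close together and lay between the 2 vehicle values. Its direction turned with the vehicle library left out: 0.42 (adjusted p = 0.0339) without replicate 1 and -0.53 (adjusted p = 0.00105) without replicate 2.

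Complex III has a single mitochondrially encoded subunit, cytochrome b, the product of mt-Cytb. Its transcript fell to 5582 and 6303 CPM in SGC-CBP30 libraries, against 7528 and 7613 CPM in vehicle libraries. The vehicle libraries were nearly equal and lay above both SGC-CBP30 libraries (-0.35 ± 0.06, adjusted p = 8.57e-05).

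All 3 mitochondrially encoded subunits of complex IV, cytochrome c oxidase, fell. The catalytic subunit mt-Co1 was the most abundant mitochondrial transcript, at 25884 and 28663 CPM in SGC-CBP30 libraries and 32707 and 34360.0 CPM in vehicle libraries (-0.30 ± 0.06, adjusted p = 5.65e-04). The groups stood well apart. The subunit that takes electrons from cytochrome c, mt-Co2, had 51.3 and 44.0 CPM in SGC-CBP30 libraries and 54.8 and 62.8 CPM in vehicle libraries. Its groups did not overlap but came close (-0.30 ± 0.09, adjusted p = 0.0144). The log2 fold change was -0.20 (adjusted p = 0.0746) without SGC-CBP30 replicate 2 and -0.20 (adjusted p = 0.289) without vehicle replicate 2. The structural subunit mt-Co3 had 21.2 and 23.2 CPM in SGC-CBP30 libraries and 31.8 and 36.7 CPM in vehicle libraries. Its log2 fold change of -0.62 ± 0.11 (adjusted p = 1.27e-04) was the largest decrease among the protein genes tested, a level 1.54-fold lower. It rested on 361 and 407 counts in SGC-CBP30 libraries and 562 and 585 in vehicle libraries. All or nearly all of the mt-Co2 and mt-Co3 sequences is also found in annotated copies in the nucleus, described below.

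Complex V, the ATP synthase, has mt-Atp6, part of its proton channel, and mt-Atp8, a small subunit of its membrane part. Transcript mt-Atp6 had 22.1 and 19.0 CPM in SGC-CBP30 libraries and 28.8 and 29.3 CPM in vehicle libraries. Both treated libraries lay below both vehicle libraries (-0.50 ± 0.12, adjusted p = 0.00173). Nearly all of the mt-Atp6 sequence is also found in an annotated nuclear copy, described below, which was assigned more counts than mt-Atp6 in every library. For mt-Atp8 only 1 and 3 counts were assigned in SGC-CBP30 libraries and 2 and 4 in vehicle libraries, too few to test. The genes overlap by 43 bases on the same strand, so reads in that stretch belong to both.

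The rRNA genes, which give the RNA core of the mitochondrial ribosome, both fell. The large-subunit rRNA mt-Rnr2 had 1279 and 1458 CPM in SGC-CBP30 libraries and 1695 and 1681 CPM in vehicle libraries (-0.30 ± 0.06, adjusted p = 4.84e-04). The small-subunit rRNA mt-Rnr1 had 443 and 458 CPM in SGC-CBP30 libraries and 496 and 526 CPM in vehicle libraries. Neither gene's groups overlapped, but the decrease of mt-Rnr1 was the smallest among the called genes (-0.18 ± 0.06, adjusted p = 0.0208). It was not called without vehicle replicate 1 (adjusted p = 0.117) or replicate 2 (adjusted p = 0.422).

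The tRNA genes had few counts: 7 of the 19 averaged under 10 counts per library and 5 averaged over 100. Whether such counts came from mature tRNAs or from uncut precursors was not tested. The 3 that fell were mt-Tl1 and mt-Ts2, which carry leucine and serine, and mt-Tp, which carries proline. Their DNA sequences, from the GENCODE M21 transcripts on GRCm38, are shown because these are the tRNA genes called. Letters run 5′ to 3′ on the gene's own strand, and capitals mark the anticodon. Its letters were given beforehand, and a search placed them where the stem flanking the loop had the most base pairs. These were 4 of 5 for mt-Tl1 and mt-Ts2 and 5 of 5 for mt-Tp.
mt-Tl1, MT:2676-2750, plus strand: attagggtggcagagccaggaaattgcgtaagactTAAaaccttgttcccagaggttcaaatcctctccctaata
mt-Ts2, MT:11613-11671, plus strand: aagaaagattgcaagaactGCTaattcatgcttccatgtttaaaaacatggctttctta
mt-Tp, MT:15356-15422, minus strand: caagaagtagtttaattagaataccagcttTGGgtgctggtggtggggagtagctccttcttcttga

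The leucine tRNA mt-Tl1 lies between mt-Rnr2 and mt-Nd1 with no base to spare on either side. It had 142 and 175 counts, or 8.35 and 9.97 CPM, in SGC-CBP30 libraries, against 284 and 242 counts, or 16.1 and 15.2 CPM, in vehicle libraries. The groups stood far apart, and the log2 fold change was -0.77 ± 0.15 (adjusted p = 3.72e-04). Its neighbours mt-Rnr2 and mt-Nd1 had log2 fold changes of -0.30 and -0.39. The proline tRNA gene mt-Tp had the most counts among the tRNA genes, with 72.7 and 84.6 CPM in SGC-CBP30 libraries and 92.0 and 98.1 CPM in vehicle libraries (-0.27 ± 0.08, adjusted p = 0.0115). Without SGC-CBP30 replicate 1 its log2 fold change was -0.17 (adjusted p = 0.0687). The serine tRNA mt-Ts2 had 38 and 49 counts in SGC-CBP30 libraries and 83 and 70 counts in vehicle libraries. The groups did not overlap (-0.85 ± 0.28, adjusted p = 0.0240), but DESeq2 did not call it (adjusted p = 0.0895).

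The other 11 tested tRNA genes did not pass the threshold, and their log2 fold changes ran from -0.42 for mt-Ta, which carries alanine, to 0.30 for mt-Tg, which carries glycine. The cysteine tRNA gene mt-Tc, with the most counts of them, had 23.7 and 22.9 CPM in SGC-CBP30 libraries and 29.8 and 23.8 CPM in vehicle libraries (-0.20 ± 0.12, adjusted p = 0.221). The asparagine tRNA mt-Tn had 16.2 and 16.7 CPM in SGC-CBP30 libraries and 21.2 and 15.1 CPM in vehicle libraries (-0.14 ± 0.15, adjusted p = 0.512). In mt-Tn, as in mt-Nd3, the vehicle libraries lay on either side of the SGC-CBP30 libraries. Vehicle replicate 1 exceeded vehicle replicate 2 by more than 1.3-fold in 8 tested genes, none of them called. The tRNAs for tryptophan (mt-Tw, -0.23), tyrosine (mt-Ty, -0.39), arginine (mt-Tr, -0.26) and threonine (mt-Tt, -0.25) had negative log2 fold changes with adjusted p of 0.415, 0.397, 0.692 and 0.821. Those for glutamate (mt-Te, -0.029), histidine (mt-Th, 0.13) and the second leucine tRNA (mt-Tl2, 0.041) lay near 0, with adjusted p of 0.963, 0.783 and 0.937. The remaining 5 were not tested: the valine tRNA mt-Tv had 4 and 3 counts in SGC-CBP30 libraries and 0 in both vehicle libraries, the lysine tRNA mt-Tk had 0 in both SGC-CBP30 libraries and 2 and 0 in vehicle libraries, and mt-Ti, mt-Tm and mt-Tq, for isoleucine, methionine and glutamine, had at most 8 counts in any library.

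Levels differed far more between genes than between groups. Per kilobase of gene length, mt-Co1 led with 17653 ± 1272 CPM per kb in SGC-CBP30 libraries and 21705 ± 756 CPM per kb in vehicle libraries (SD, n = 2 each, here and below). Next came mt-Nd1, with levels of 6563 ± 441 in SGC-CBP30 and 8575 ± 122 CPM per kb in vehicle libraries, and mt-Cytb, with 5195 ± 445 in SGC-CBP30 and 6618 ± 52.3 CPM per kb in vehicle libraries. The levels of mt-Nd2 and mt-Nd5 in SGC-CBP30 libraries, 3150 ± 414 and 3110 ± 495 CPM per kb, did not differ beyond their spread, while in vehicle libraries they were 4050 ± 52.4 and 3743 ± 72.9 CPM per kb and did. Levels of mt-Nd6 and mt-Nd4 were 2469 ± 253 and 2201 ± 251 CPM per kb in SGC-CBP30 libraries. Vehicle libraries had 2878 ± 29.0 and 2754 ± 16.6 CPM per kb. Within each library mt-Nd6 lay above mt-Nd4, at 2290 against 2024 and 2647 against 2379 CPM per kb in SGC-CBP30 libraries. In vehicle libraries mt-Nd6 had 2858 and 2899 and mt-Nd4 2742 and 2765 CPM per kb. Stretches of mt-Nd4 and mt-Co1, but not of mt-Nd6, are also found in annotated nuclear transcripts, described below. What part this had in their levels was not tested. The rRNA mt-Rnr2 stood well below these in counts. It had 865 ± 79.99 CPM per kb in SGC-CBP30 libraries and 1067 ± 6.24 CPM per kb in vehicle libraries. Whether poly(A) RNA was selected is not stated, so the order of rRNA and protein genes may not be that in the cells. At the low end of the tested protein genes, mt-Atp6 and mt-Co3 had levels of 30.2 ± 3.20 and 28.3 ± 1.77 CPM per kb in SGC-CBP30 libraries, and 42.7 ± 0.527 and 43.7 ± 4.36 CPM per kb in vehicle libraries, which did not differ from each other beyond their spread in either group.

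**Figure D3:**
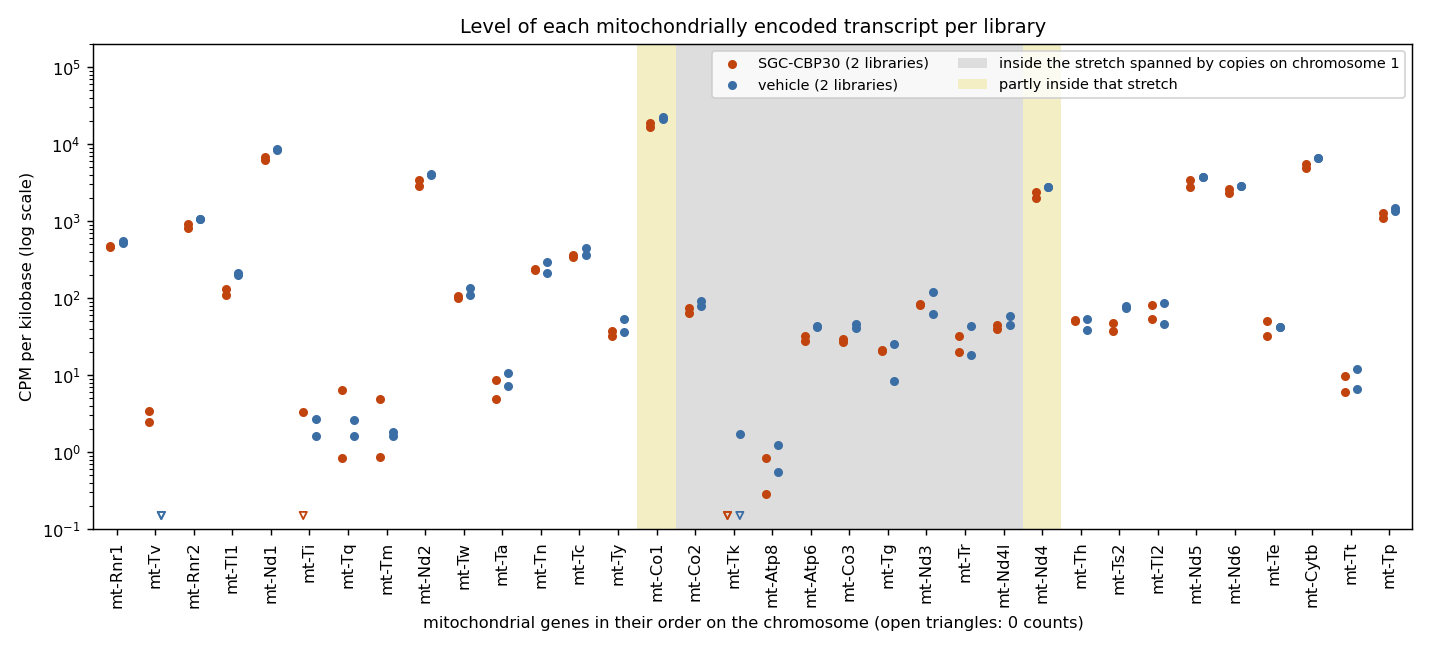
Level of each of the 34 mitochondrially encoded genes in every library, in CPM per kilobase on a log axis, with genes in their order along the chromosome and SGC-CBP30 to the left of vehicle; open triangles mark 0 counts. Protein genes inside the shaded stretch, spanned by annotated copies on chromosome 1, have levels of 0.563 to 83.6 CPM per kb in SGC-CBP30 libraries, and those outside it 2469 to 6563.

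The low protein genes lie side by side, in a stretch of the chromosome whose genes have, except mt-Atp8 and the tRNA genes, nearly exact annotated copies in the nucleus. Mammalian nuclear genomes carry pieces of mitochondrial DNA, and reads from identical stretches cannot be assigned by sequence. Annotated transcripts on chromosome 1 (chr1:24611535-24616197, minus strand, GRCm38) span positions 6390 to 11042 of the mitochondrial chromosome, 4653 bases, as 7 genes in the same order. They align to 4136 of these bases, and the stretches between them were not compared. Of these 7 copies, 5 were identical over the aligned bases and 2 had 1 mismatch. Inside the stretch lie 6 protein genes, mt-Co2, mt-Atp8, mt-Atp6, mt-Co3, mt-Nd3 and mt-Nd4l, with mean levels of 0.563 to 83.6 CPM per kb in SGC-CBP30 libraries and 0.892 to 92.0 CPM per kb in vehicle libraries. The 5 protein genes outside it had 2469 to 6563 CPM per kb in SGC-CBP30 libraries and 2878 to 8575 CPM per kb in vehicle libraries. Another 2, mt-Co1 and mt-Nd4, lie partly inside, with 31.3% and 63.6% of their bases, and were among the high genes. How reads that map to several places were counted is not given in the sources used here, and its part in these levels was not tested.

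The first 80 bases of mt-Nd3 and of its copy Gm28438 are shown because they hold the only base, in capitals, by which the aligned transcripts differ. It is T3C, counted from 1 at the start of mt-Nd3, with the mitochondrial base first.
mt-Nd3, MT:9459-9538, plus strand: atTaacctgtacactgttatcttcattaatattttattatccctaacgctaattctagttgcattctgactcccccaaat
Gm28438, chr1:24613040-24613119, minus strand: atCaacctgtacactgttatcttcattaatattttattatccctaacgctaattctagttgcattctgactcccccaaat

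Of all 50-base windows of a gene, the share also found in an annotated nuclear transcript was 100% for mt-Co2, 99.9% for mt-Co3, 99.5% for mt-Atp6, 98.8% for mt-Nd4l and 98.0% for mt-Nd3. It was 62.2% for mt-Nd4 and 51.1% for mt-Co1, and at most 8.19% for every other protein gene. For mt-Atp8, which lies inside the stretch but has no annotated copy transcript, the share was 0%.

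Nuclear copies were also counted, and those called were lower in SGC-CBP30 organoids. Copy Gm10925 of mt-Atp6 had 409 and 402 counts in SGC-CBP30 libraries and 613 and 508 in vehicle libraries, while mt-Atp6 itself had 376 and 334 in SGC-CBP30 libraries and 509 and 468 in vehicle libraries. Copy Gm28661 of mt-Co2 had 488 and 490 counts in SGC-CBP30 libraries and 615 and 562 in vehicle libraries, while mt-Co2 itself had 872 and 772 in SGC-CBP30 libraries and 968 and 1002 in vehicle libraries. In all 4 genes the groups did not overlap. Of 11 annotated nuclear copies that share a 50-base window and had counts, 10 were tested, 6 were called lower and 0 higher. Over all genes tested, 16.3% were called lower and 13.6% higher. The called copies matched their mitochondrial gene over the aligned bases exactly, or with 1 mismatch in Gm29216. Reads there may come from either place, so these calls are not separate from those of the mitochondrial genes. The fold changes of the called copies were -0.50 ± 0.11 for Gm10925 (adjusted p = 8.31e-04), -0.53 ± 0.13 for Gm29216, a copy of part of mt-Co1 (adjusted p = 0.00505), and -0.47 ± 0.14 for Gm28437, a copy of mt-Co3 (adjusted p = 0.0101), all as log2. The other called copies were Gm28439 of mt-Nd4 (-0.44 ± 0.13, adjusted p = 0.0101), Gm28661 (-0.31 ± 0.10, adjusted p = 0.0237) and Gm10222 of mt-Nd4l (-0.57 ± 0.20, adjusted p = 0.0366). Without vehicle replicate 2, Gm29216 had -0.27 (adjusted p = 0.149) and Gm28437 -0.31 (adjusted p = 0.205). Of the 6 called copies, Gm10925 alone was called under every other setting tried.

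Not called were Gm28438 of mt-Nd3 (log2 fold change -0.45 ± 0.32, adjusted p = 0.320) and 3 less similar copies on chromosome 2, Gm13340, Gm13341 and Gm13339, at -0.41, -0.41 and 0.21 (adjusted p = 0.103, 0.489 and 0.830). In a setting chosen after seeing the data, each copy's counts were added to its mitochondrial gene. All 15 called genes were called again and mt-Nd4l was too (-0.39, adjusted p = 0.0212). Most called genes could hardly change, having no counted copy or, as mt-Co1 and mt-Nd4, far more counts than their copies. Called genes with copy counts of a similar order were mt-Co2, mt-Atp6 and mt-Co3, whose log2 fold changes became -0.31, -0.50 and -0.57. The 5 protein genes outside the stretch share at most 8.19% of their windows with nuclear transcripts and all fell, with log2 fold changes of -0.39 to -0.22.

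The ends of the messages also differ. In 10 of the 13 protein genes the annotated transcript ends in a complete stop codon, while mt-Co3, mt-Cytb and mt-Nd4 end in a lone T, which in mitochondria is completed to a stop codon by the poly(A) tail. These 3 genes were all called lower, with log2 fold changes of -0.62, -0.35 and -0.32, within or beyond the range of -0.50 to -0.22 of the 7 called protein genes with a complete stop.

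Among the nuclear genes that serve mitochondrial gene expression, the lists for mtDNA and its transcription and for RNA processing had their calls on the lower side. Of 20 tested genes for mtDNA maintenance and transcription, 9 fell and 0 rose, where 16.3% of all genes tested fell and 13.6% rose, which is also the background for the lists below (median log2 fold change -0.31, beside 0.0096 over all genes). The 3 of smallest p were Mterf2, a member of the mitochondrial transcription termination factor family, Polg2, the accessory subunit of the mtDNA polymerase, and Twnk, the mtDNA helicase. Transcript Mterf2 had 13.2 and 12.8 CPM in SGC-CBP30 libraries and 19.9 and 22.4 CPM in vehicle libraries, without overlap (-0.70 ± 0.13, adjusted p = 2.06e-04), and Polg2 and Twnk had log2 fold changes of -0.46 ± 0.14 (adjusted p = 0.0150) and -0.43 ± 0.13 (adjusted p = 0.0104). Named after their values were seen, the core transcription genes Polrmt, the mitochondrial RNA polymerase, Tfam, which packs and bends mtDNA, and Tfb2m, which opens promoters, had -0.32 ± 0.10, -0.32 ± 0.10 and -0.35 ± 0.12 (adjusted p = 0.0188, 0.0164 and 0.0313). DESeq2 called none of these core genes (adjusted p = 0.0668, 0.0603 and 0.112), and Tfam had -0.20 without vehicle replicate 1. Of the list, 11 genes were not called. Among them, also named after their values were seen, were Tefm (-0.23 ± 0.22, adjusted p = 0.469), Tfb1m (-0.29 ± 0.27, adjusted p = 0.453) and Mterf1a (0.21 ± 0.33, adjusted p = 0.691). Over the whole list DESeq2 called 2 genes of the list, and 3 genes of the list were called without vehicle replicate 1.

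Of 20 tested genes for mitochondrial RNA processing and turnover, 6 fell and 0 rose (median -0.22). Among them Lrpprc, which binds and stabilises mitochondrial messenger RNAs, had 82.1 and 89.6 CPM in SGC-CBP30 libraries and 118 CPM in both vehicle libraries. It lay well apart between groups (-0.46 ± 0.07, adjusted p = 2.24e-05). The RNA-binding protein genes Ptcd2 and Fastkd2 had log2 fold changes of -0.49 ± 0.11 (adjusted p = 0.00186) and -0.47 ± 0.12 (adjusted p = 0.00468).

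Of 20 tested tRNA modification genes, 2 fell and 0 rose (median -0.11), near or below the shares over all genes tested: Trnt1, which adds the CCA end to tRNAs (-0.49 ± 0.12, adjusted p = 0.00280), and Nsun2, a tRNA methyltransferase (-0.19 ± 0.07, adjusted p = 0.0418). Of 23 aminoacyl-tRNA synthetase genes, 2 fell and 1 rose (median 0.077): Ears2, for glutamate, fell by 0.88 ± 0.16 on the log2 scale (adjusted p = 1.82e-04), Mars2, for methionine, fell by 0.38 ± 0.11 (adjusted p = 0.00890), and Gars, for glycine, which also serves the cytosol, rose by 0.21 ± 0.07 (adjusted p = 0.0182).

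Of 15 regulators of mitochondrial biogenesis, 3 fell and 2 rose (median -0.047). The transcriptional coactivator gene Ppargc1a had 13.4 and 17.9 CPM in SGC-CBP30 libraries, against 48.2 and 47.3 CPM in vehicle libraries. Its groups were far apart, and its log2 fold change of -1.61 ± 0.12 (adjusted p = 1.02e-10) was the largest in these lists. The related coactivator gene Ppargc1b, named after its values were seen, had -0.39 ± 0.11 (adjusted p = 0.00920). The transcription factor gene Myc fell (-0.34 ± 0.08, adjusted p = 0.00306), while Prkaa1, a catalytic subunit of the energy sensor AMPK, rose (0.37 ± 0.08, adjusted p = 0.00129). The other gene that rose, Hcfc1, also named after its values were seen, had 0.24 ± 0.07 (adjusted p = 0.0117). Its call was not followed under the other settings. The remaining 10 regulators were not called. Of the genes named from these 5 lists, Polrmt, Tfam, Tfb2m, Twnk, Polg2, Trnt1, Nsun2, Mars2, Gars, Myc and Ppargc1b lost their call under at least 1 other setting.

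**Figure D4:**
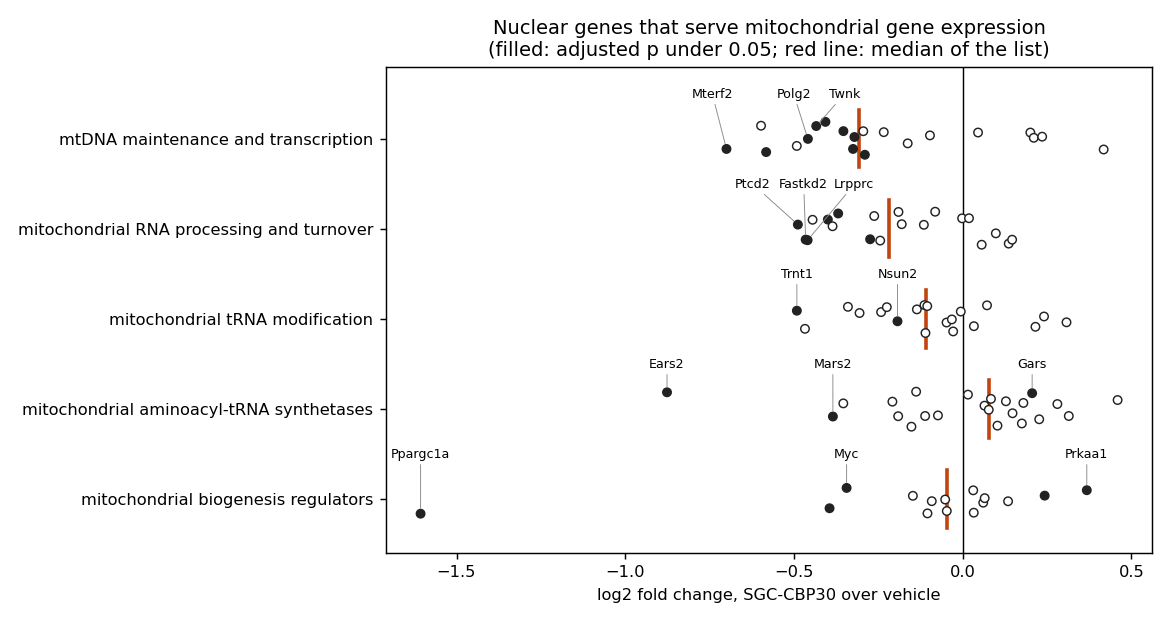
Log2 ratio of SGC-CBP30 to vehicle (horizontal axis) for nuclear genes of 5 lists that serve mitochondrial gene expression, 1 point per tested gene, filled where the adjusted p was under 0.05, with the median of each list as a red line. The filled points of the upper 3 lists all lie left of 0, and Ppargc1a stands farthest left at -1.61.

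Some markers of intestinal cell types were called in the same comparison, in which 16.3% of all genes tested were lower and 13.6% higher. Of 14 enterocyte markers, all tested, 8 were lower and 2 higher, and their summed level was 34229 and 31871 CPM in SGC-CBP30 libraries, against 43618 and 43864 CPM in vehicle libraries. Of 6 proliferation markers, 5 were lower and 0 higher (446 and 480 CPM in SGC-CBP30 libraries, 571 and 547 CPM in vehicle libraries). Of 9 Paneth cell markers, 4 were lower and 0 higher (3745 and 3404 CPM in SGC-CBP30 libraries, 4314 and 4222 CPM in vehicle libraries). Of 7 crypt base stem cell markers 2 were lower and 2 higher, with a median log2 fold change of 0.028. Their sum, in which abundant markers weigh most, was 608 and 681 CPM in SGC-CBP30 libraries and 770 and 745 CPM in vehicle libraries. Between the SGC-CBP30 libraries, summed enterocyte and Paneth cell markers were lower in replicate 2, and summed stem cell and proliferation markers in replicate 1. Of the 28 tested mitochondrial genes, 20 were lower in replicate 1, and the share among all genes tested was not counted. The remaining epithelial lists had 2 lower and 1 higher of 8 tested goblet cell markers, 3 lower and 0 higher of 8 enteroendocrine markers, and 2 lower and 0 higher of 5 tested tuft cell markers. Of the other cell types, the summed fibroblast markers had 12.6 and 10.2 CPM in SGC-CBP30 and 16.03 and 17.2 CPM in vehicle libraries, mostly Vim, with 172 and 160 counts in SGC-CBP30 and 276 and 265 in vehicle libraries. The collagen genes, at few counts, lay the other way: Col1a1 had 9 and 2 counts in SGC-CBP30 and 0 in both vehicle libraries, Col1a2 1 in both SGC-CBP30 and 0 in both vehicle libraries, and Col3a1 16 and 7 in SGC-CBP30 and 1 in both vehicle libraries. The fibroblast marker Lum was at 0 counts in all 4 libraries. Immune markers summed to 2.29 and 2.68 CPM in SGC-CBP30 and 2.89 and 2.38 CPM in vehicle libraries, and endothelial markers to 1.76 and 1.65 CPM in SGC-CBP30 and 1.76 and 1.504 CPM in vehicle libraries. The part of these cell type markers in the mitochondrial decrease was not tested.

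In the authors' deposited table, with adjusted p under 0.05, 8 of 13 protein genes, 2 of 2 rRNA genes and 1 of 19 tRNA genes were lower and 0 were higher, against 6.91% lower and 4.49% higher of the 23932 genes with an adjusted p in that table. The deposited table gives mt-Nd5 an adjusted p of 0.290, mt-Co2 0.0858, mt-Tp 0.0542 and mt-Ts2 0.1501, the 4 genes called here but not there.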

How the data were processed

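All values came from 1 deposited table. The tests used its raw counts, which are whole numbers for each gene in each library, per the file headers. The deposited FPKM values, the authors' group means (a signal on the scale of normalized counts) and the deposited gene length did not. The authors' deposited log2 fold change, p-value and adjusted p-value come from a test that the headers do not name. The submitters' processing notes list HISAT2 2.0.5, StringTie 1.3.3b, featureCounts 1.5.0-p3 and the build mm9, without roles. The table's coordinates are however those of GRCm38: 98.5% of 51476 shared identifiers, and all 34 mitochondrial genes, had identical coordinates in GENCODE M21. Not given in the sources used here are strand use and the treatment of reads with several mapping places. The table stops within its last line, and 27 symbols turned into dates were restored through their identifiers.

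The libraries held 16674571 and 17076724 counts for SGC-CBP30 and 18087250 and 16433117 for vehicle, with 20980 to 21933 genes detected. At these depths 3 counts equal 0.166 to 0.183 CPM before TMM scaling. Genes were tested with edgeR 4.0.16 in R 4.3.3: filterByExpr by group, TMM factors (1.02 and 1.03 for SGC-CBP30, 0.978 and 0.972 for vehicle), robust quasi-likelihood F test of SGC-CBP30 over vehicle, and Benjamini-Hochberg adjustment over the 14684 genes tested. The SE is the log2 fold change's size over the root of F, and CPM use the TMM factors. The fitting was tested on simulated data. Alternatives were DESeq2 1.42.0, library totals alone, a scale from nuclear genes only, upper quartile factors, no filter or at least 50 counts in 2 libraries, each library left out, a replicate block, and nuclear copies summed with their mitochondrial gene. Copies were found by searching the GENCODE M21 transcripts for 50-base windows. The genes named are all mitochondrial genes, up to 3 called genes of smallest p in each nuclear list, and listed nuclear copies averaging at least 10 counts; others are said to be named after their values were seen. The members and lists were chosen with earlier results of these data known.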

Additional observations from a re-analysis of the deposited data

How the results depend on the processing

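All 15 called mitochondrial genes kept a negative log2 fold change under every alternative run, though summing copies added few or no counts to most of them. With a library left out, 1 group has 1 library, so calls there rest on the spread within the other group alone. All 15 were called again with no filter, with at least 50 counts, under the replicate block and with copies summed; 14 were with a nuclear scale, 13 with upper quartile factors, 12 by DESeq2, 10 with library totals alone, and 10 to 14 with a library left out, fewest without vehicle replicate 2. Over the whole table, leaving out a library gave 2899 to 4557 calls, and DESeq2 gave 3061. Library totals alone gave 2907 higher and 1924 lower, against 2004 higher and 2397 lower in the main setting; upper quartile factors gave 2394 and 2133. Called rRNA and tRNA genes numbered 3 with library totals alone and 2 to 5 with a library left out. The mtDNA list had 2 calls by DESeq2, 5 with library totals and 3 to 7 with a library left out; RNA processing had 3 by DESeq2 and 4 to 6 with a library left out. The tRNA modification list had 1 by DESeq2, with library totals, upper quartile factors and no filter, and 0 to 3 with a library left out. Synthetases had 5 with library totals and with upper quartile factors and 2 to 5 with a library left out, and biogenesis regulators 2 to 6. The mitochondrial share differed by -1.39 to -0.645 points with a library left out.

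Of the genes not called, the sign turned for mt-Te with library totals (0.045) and upper quartile factors (0.0076). With a library left out, log2 fold changes ran from -0.36 to 0.13 for mt-Tn, -0.26 to 1.32 for mt-Tg, -0.53 to 0.42 for mt-Nd3, -0.73 to 0.49 for mt-Tr, -0.090 to 0.39 for mt-Th, -0.32 to 0.56 for mt-Tl2, -0.40 to 0.26 for mt-Te, -0.63 to 0.25 for mt-Tt and -0.45 to 0.66 for Gm13339. The cause was not tested.

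The replicate block gave 4703 calls over the whole table. Same-numbered libraries share only a number: their deviations correlated at -0.024.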
